A study of Rattus norvegicus with 12 samples.

Results

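The levels of 7 extracellular matrix genes were followed through the retinas of rat pups with oxygen-induced retinopathy (OIR) and of sham controls. They are the fibrillar collagen genes Col1a1 (ENSRNOG00000003897), Col1a2 (ENSRNOG00000011292) and Col3a1 (ENSRNOG00000003357), the basement membrane collagen genes Col4a1 (ENSRNOG00000016281) and Col4a2 (ENSRNOG00000023972), the fibronectin gene Fn1 (ENSRNOG00000014288), and Sparc (ENSRNOG00000012840). The members were named by identifier, and all 7 identifiers were found among the 32883 gene rows of the deposited table. Identifiers and symbols are paired only in the list that named the members. The RefSeq annotation table used here holds 47357 genes and 0 Ensembl identifiers, so the pairing could not be checked against it.

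The study measured RNA in 12 libraries from dissected retinas of Sprague Dawley rats, all wild type and of postnatal day 18. There were 4 groups of 3 libraries: OIR with miR-143 mimic, OIR with scrambled RNA, sham with miR-143 mimic, and sham with scrambled RNA. In OIR, newborn rodents are kept in altered oxygen while their retinal vessels form, which halts the vessels and is followed by disordered new ones. The mimic stands in for the microRNA miR-143, and scrambled RNA is its control, so the sham groups too had received an RNA. The labels state neither dose nor route. Mimic columns are marked L and scrambled columns R, and OIR and sham columns carry separate runs of numbers. Whatever letter and number stand for therefore cannot be told apart from injection and condition. Sham mimic replicate 1 and sham scrambled replicate 1 carry the same number.

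Collagens of the fibrillar types I and III give tensile strength to connective tissue and to the walls of larger vessels. Type I collagen is built from the chains of Col1a1 and Col1a2, and type III collagen from the chain of Col3a1. Type IV collagen, built from the chains of Col4a1 and Col4a2, forms the network of basement membranes, which in the retina surround the capillaries and form part of the inner limiting membrane. Fibronectin is assembled into fibrils that cells bind through integrins, and in the mouse retina astrocytes lay it down ahead of growing vessels. Sparc is a secreted glycoprotein that binds collagen and affects how cells attach to the matrix.

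Col4a1 and Col4a2 lie head to head on opposite strands, with 76 bases between their RefSeq start sites in GRCr8. This stretch is shown because levels of both genes followed each other closely, as described below. It lies at chr16:84885521-84885596 and is written on the plus strand, with Col4a2 to its left and Col4a1 to its right. The capitals mark its single match to the GC-box letters GGGCGG, which is on the minus strand.

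Between the starts of Col4a2 and Col4a1: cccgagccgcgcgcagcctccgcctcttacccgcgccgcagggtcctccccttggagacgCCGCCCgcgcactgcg

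Of these bases, 78.9% were G or C. RefSeq windows from 250 bases before to 50 bases after the start were at hand for 4 of the 7 genes, and 4 motifs were searched on both strands. The Col4a1 and Col4a2 windows overlap, so they share matches: GGGCGG was found 2 times in each, and CCAAT 2 times in the Col4a1 window and 1 time in the Col4a2 window. The Col1a2 window held CCAAT and TATAAA 1 time each. The fourth motif was ACGTG, a form of the core of the hypoxia response element, which none of the 4 windows held, and the Sparc window held no motif searched. Of all 33469 windows, 33.1% held GGGCGG and 37.5% held CCAAT. Among the same 33469 windows, 14.2% held TATAAA and 19.3% held ACGTG. These are matches of letters and not sites of binding.

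Levels are given in TPM, a share of transcripts corrected for the length of each gene, so they can be set side by side between genes. The TPM values stepped in whole reads, which gave 10537600 to 13175005 reads on genes per library. All 12 pairs of replicates differed beyond sampling noise, with 4.67 to 22.6 as chi-square over its degrees of freedom. In bulk retina, more cells of a type and more RNA per cell cannot be told apart.

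In 11 of 12 libraries the genes had the same order of level: Sparc, Col4a1, Col4a2, Fn1, Col3a1, Col1a1 and Col1a2. The exception was OIR mimic replicate 3, where Col3a1 and Col1a1 stood above Fn1. Col4a1 was thus above Col4a2 within each of the 12 libraries, though in sham the ratio came down to 1.01. Across libraries the ranges of some neighbours overlapped. Over the 6 OIR libraries, Fn1 averaged 24.6 ± 4.10 TPM and Col3a1 23.4 ± 14.7 TPM (SD, n = 6). Over the 6 sham libraries, Col4a1 averaged 97.7 ± 72.1 TPM and Col4a2 78.2 ± 46.5 TPM (SD, n = 6).

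**Figure D1:**
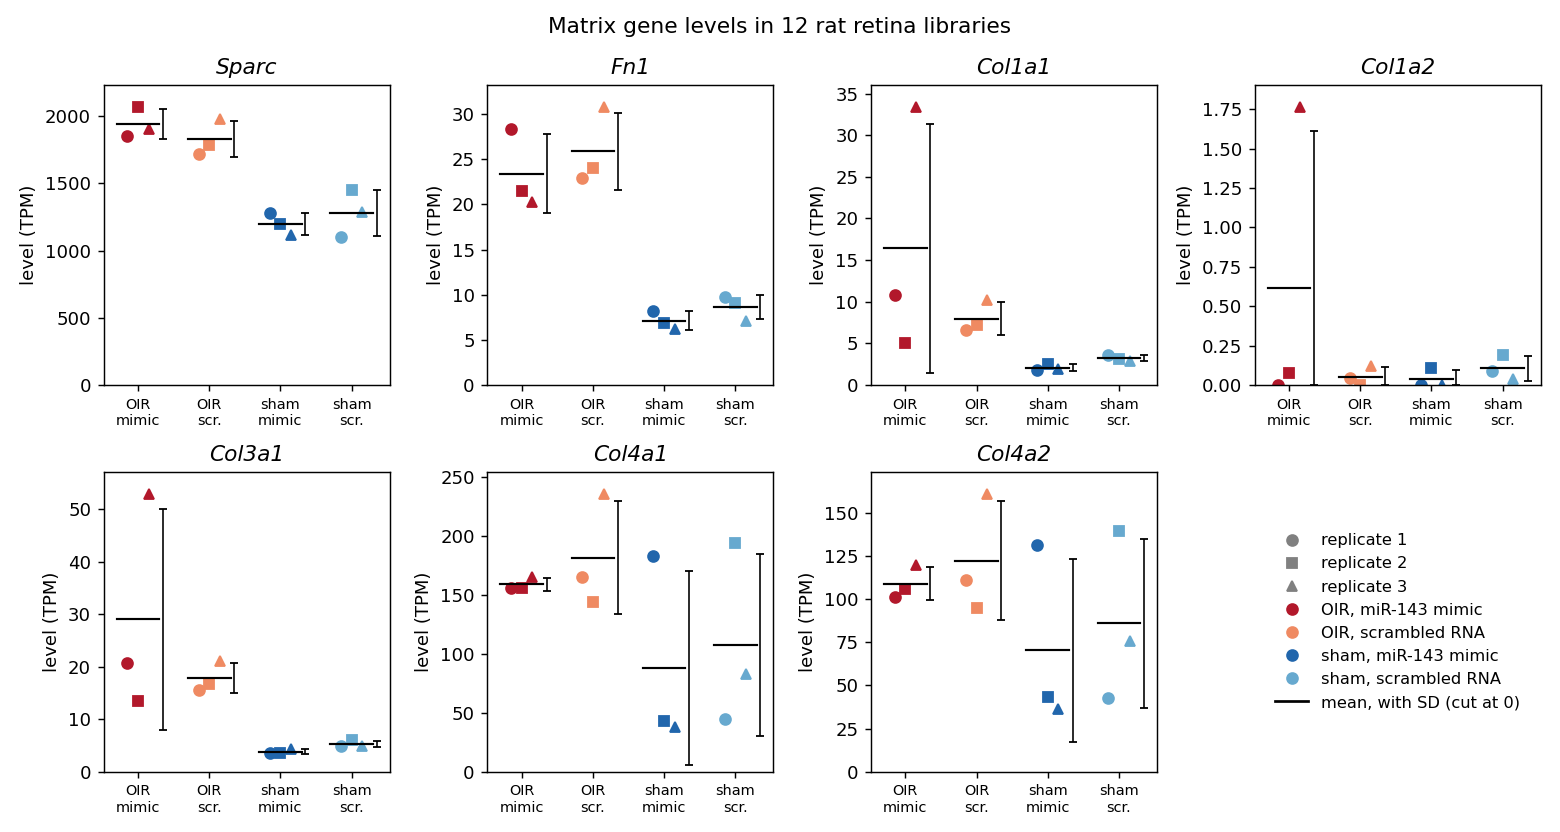
Level (TPM, linear axis from 0) of each gene in the 12 libraries, by group, with the mean as a bar and the SD beside it (n = 3, cut at 0). For Sparc, Fn1, Col1a1 and Col3a1 each OIR library lies above each sham library, for Col4a1 and Col4a2 the sham libraries spread into the OIR range, and OIR mimic replicate 3 stands apart for the 3 fibrillar collagen genes.

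Sparc, Fn1, Col3a1 and Col1a1 were higher in OIR than in sham retinas in the average over both injections, and Col4a1 and Col4a2 did not pass the test. Differences were tested with limma on log2(TPM + 1) over 15916 genes that reached 1 TPM in at least 3 libraries, with Benjamini-Hochberg adjusted p below 0.05 as the threshold. Of the 7 genes 6 passed this filter, each with all 6 sham libraries at or above 1 TPM, and Col1a2 did not. Over both injections 4 of the 6 tested genes were called higher in OIR, where 17.5% of all tested genes were and 30.2% were called in either direction. After the mimic 4 of 6 were called higher, where 9.76% of all genes were (19.5% in either direction), and after scrambled RNA 3 of 6, where 6.79% were (10.7% in either direction). None was called lower. Over both injections the log2 difference was 1.99 for Col3a1, 1.60 for Col1a1, 1.53 for Fn1 and 0.61 for Sparc, with limma adjusted p of 0.000258, 0.00384, 1.08e-05 and 0.000116. The median log2 difference of the 6 genes was 1.32 over both injections, 1.41 after the mimic and 1.02 after scrambled RNA, against 0.045, 0.041 and 0.047 over all tested genes. The members were chosen with earlier results of these data known, and some of them move together. Their counts and medians are therefore a description and no test of the set. As deposited, 57.8% of the genes called over both injections were higher, 50.0% of those after the mimic and 63.4% of those after scrambled RNA. After quantile normalisation these shares were 45.7%, 43.2% and 44.8%, and after median-ratio scaling 48.4%, 43.3% and 50.1%.

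In 4 of the 6 tested genes each OIR library lay above each sham library, which held for 9.78% of all tested genes. The same 4 genes were separate after the mimic alone and after scrambled RNA alone, where 20.1% and 19.7% of all tested genes were. For these 4 genes an exact permutation test of the 6 OIR against the 6 sham libraries gave p = 0.00216 (two-sided), the smallest that 6 against 6 allows. Full separation always gives this smallest p, so it adds nothing to the separation itself. That test gave p = 0.0476 for Col4a1 and p = 0.0823 for Col4a2 (exact, two-sided, not adjusted). Each p is the share of all divisions of these libraries into 6 and 6 with a difference at least as large. The divisions disregard the injection, and no label tells whether replicates are different animals.

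Sparc was by far the most abundant of the 7 genes. It had 1850, 2066 and 1901 TPM in OIR retinas with mimic, and 1717, 1786 and 1977 TPM in OIR retinas with scrambled RNA. Sham retinas had 1278, 1194 and 1118 TPM with mimic and 1103, 1448 and 1283 TPM with scrambled RNA. All OIR libraries were above all sham libraries. Within a group the coefficient of variation of Sparc was lowest in OIR with mimic (5.81%) and highest in sham with scrambled RNA (13.5%). In OIR libraries Sparc held ranks 27 to 31 among all genes by level, and in sham libraries ranks 40 to 69. The log2 difference between OIR and sham was 0.70 (SE 0.098, limma adjusted p 0.00101) after the mimic and 0.52 (SE 0.098, limma adjusted p 0.00778) after scrambled RNA. The ratio of mean levels, OIR over sham, was 1.52. Over the 6 OIR libraries the coefficient of variation of its level was 6.74%, where counting error alone gives 0.682%.

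Fn1 was higher in OIR by nearly the same amount after either injection. Its level was 28.4, 21.5 and 20.3 TPM in OIR retinas with mimic and 22.9, 24.0 and 30.8 TPM in OIR retinas with scrambled RNA. In sham retinas it was 8.25, 6.91 and 6.17 TPM with mimic and 9.71, 9.08 and 7.15 TPM with scrambled RNA. The lowest OIR library stood at over 2 times the level of the highest sham library. Between OIR and sham the log2 difference of Fn1 was 1.58 (SE 0.16, limma adjusted p 0.000239) after the mimic and 1.48 (SE 0.16, limma adjusted p 0.000598) after scrambled RNA. Its mean level in OIR was 3.13 times that in sham. After the mimic 0.710% of the tested genes had a larger log2 difference than Fn1, and after scrambled RNA 1.01%.

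Col3a1, the type III collagen gene, had 20.7, 13.4 and 52.9 TPM in OIR retinas with mimic, and 15.6, 16.8 and 21.0 TPM in OIR retinas with scrambled RNA. In sham retinas it had 3.53, 3.52 and 4.39 TPM with mimic and 4.996, 5.96 and 4.96 TPM with scrambled RNA. OIR and sham were apart in both injections, and OIR mimic replicate 3 lay far above the other OIR libraries. The log2 difference between OIR and sham was 2.42 (SE 0.36, limma adjusted p 0.00147) after the mimic and 1.57 (SE 0.36, limma adjusted p 0.0205) after scrambled RNA. Without OIR mimic replicate 3 the value after the mimic was 1.88 (limma adjusted p 0.000583). Over both injections the ratio of mean levels, OIR over sham, was then 3.84 in place of 5.13. The call after scrambled RNA was lost without OIR scrambled replicate 3 (log2 difference 1.45, limma adjusted p 0.0781). It was also lost without sham scrambled replicate 1, 2 or 3 (1.53, 1.64 and 1.53, limma adjusted p 0.0644, 0.0519 and 0.0588), and with limma voom on the recovered reads (1.75, limma adjusted p 0.0658). Without OIR scrambled replicate 3 and OIR mimic replicate 1 together, whose records lack tags, it was 1.45 with a limma adjusted p of 0.0918. Over all settings run this difference lay between 1.42 and 1.75.

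Col1a1, which encodes a chain of type I collagen, had 10.8, 5.08 and 33.4 TPM in OIR retinas with mimic and 6.56, 7.18 and 10.2 TPM in OIR retinas with scrambled RNA. Sham retinas had 1.78, 2.52 and 1.98 TPM of Col1a1 with mimic and 3.58, 3.13 and 2.94 TPM with scrambled RNA. Again no sham library reached an OIR library, and OIR mimic replicate 3 was the highest. The log2 difference of Col1a1 was 2.13 (SE 0.47, limma adjusted p 0.00912) after the mimic. With limma voom on the recovered reads that difference was 2.53 and not called (limma adjusted p 0.0591). After scrambled RNA the log2 difference was 1.07 (SE 0.47, limma adjusted p 0.172) and was not called. Leaving out OIR mimic replicate 3, which is not in that comparison but enters the common spread, gave the same difference with a limma adjusted p of 0.0208. A fit of only the scrambled groups also called it (limma adjusted p 0.0169). Without OIR mimic replicate 3 the value of Col1a1 after the mimic was 1.46 (limma adjusted p 0.00637). Over both injections the ratio of mean levels, OIR over sham, was then 3.00 in place of 4.59.

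The row named Col1a2, the partner chain of Col1a1, was close to 0. The symbol of this row could not be checked, and whether the row measures all Col1a2 RNA was not tested. It had 57 reads in all 12 libraries together, of which 40 came from OIR mimic replicate 3 and 17 from the other 11 libraries. It was listed at 0 in 4 libraries. In OIR retinas with mimic the values were 0, 0.0755 and 1.76 TPM, and with scrambled RNA 0.0423, 0 and 0.119 TPM. In sham retinas they were 0, 0.108 and 0 TPM with mimic, and 0.0879, 0.192 and 0.0375 TPM with scrambled RNA. For a count of 0 the one-sided 95% Poisson limit is about 3 reads, which was 0.105 to 0.122 TPM in these 4 libraries. The upper end of the exact two-sided 95% Poisson interval was 0.129 to 0.150 TPM there. The 40 reads of OIR mimic replicate 3 give 1.76 TPM with an exact two-sided 95% Poisson interval of 1.26 to 2.40 TPM, which covers counting error only. That same library had the highest Col1a1 and Col3a1 levels, and its Col1a1 level was 18.9 times the level of the row named Col1a2. Between the 6 OIR and the 6 sham libraries no difference in this row was detectable at this depth (exact permutation p = 0.708, two-sided). The recovered length of the row was 4475 bases, beside 5825 bases for Col1a1 and 4765 bases for Col3a1.

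Col4a1 and Col4a2, the basement membrane collagen genes, were high in each OIR library and uneven among sham libraries. Col4a1 had 156.2, 155.9 and 165.6 TPM in OIR retinas with mimic and 164.9, 144.2 and 235.7 TPM in OIR retinas with scrambled RNA. In sham retinas it had 183.0, 43.5 and 37.7 TPM with mimic and 44.9, 193.7 and 83.2 TPM with scrambled RNA. Sham mimic replicate 1 and sham scrambled replicate 2 thus stood within the OIR range, and the other 4 sham libraries stood below it. The coefficient of variation of Col4a1 over the 6 sham libraries was 73.9%, where counting error gives 1.64%, and over the 6 OIR libraries it was 19.3%. Sham mimic replicate 1 and sham scrambled replicate 1, whose columns carry the same number, lay far apart in Col4a1.

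Col4a2 followed the same libraries. It had 101.2, 105.9 and 119.5 TPM in OIR retinas with mimic, and 111.1, 95.003 and 160.9 TPM in OIR retinas with scrambled RNA. Its sham values were 131.5, 43.2 and 36.4 TPM with mimic and 42.9, 139.3 and 75.8 TPM with scrambled RNA. The high sham libraries of Col4a1 were thus also the high ones of Col4a2. For Col4a1 the log2 difference between OIR and sham was 1.23 (95% interval -0.16 to 2.62, limma adjusted p 0.206) after the mimic and 0.97 (-0.42 to 2.36, limma adjusted p 0.37) after scrambled RNA. For Col4a2 it was 0.86 (-0.23 to 1.96, limma adjusted p 0.265) after the mimic and 0.63 (-0.47 to 1.72, limma adjusted p 0.475) after scrambled RNA. Over both injections it was 1.10 for Col4a1 (limma adjusted p 0.0865) and 0.74 for Col4a2 (limma adjusted p 0.136). These intervals leave room for a difference above 2-fold as well as for none within each injection, on the log2(TPM + 1) scale.

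The Col4a1 and Col4a2 differences depended on single sham libraries, in both directions. Without sham mimic replicate 1 both genes were called higher in OIR after the mimic, with log2 differences of 1.95 for Col4a1 and 1.43 for Col4a2 (limma adjusted p 0.0274 and 0.0431). Over both injections both were called without that library, at 1.46 for Col4a1 and 1.03 for Col4a2 (limma adjusted p 0.00933 and 0.0197). Without sham scrambled replicate 2 Col4a1 was called over both injections at 1.38 (limma adjusted p 0.0292), while Col4a2 was not, at 0.96 (limma adjusted p 0.0554). After scrambled RNA the log2 difference of Col4a1 without sham scrambled replicate 2 was 1.52 and that of Col4a2 was 1.05, neither of them called (limma adjusted p 0.164 and 0.238). Without sham scrambled replicate 1 the differences after scrambled RNA were 0.48 for Col4a1 and 0.21 for Col4a2 (limma adjusted p 0.695 and 0.841). Without OIR scrambled replicate 3 that of Col4a2 was 0.41 (limma adjusted p 0.742). Without sham mimic replicate 3 the differences after the mimic were 0.82 for Col4a1 and 0.52 for Col4a2 (limma adjusted p 0.479 and 0.58). With libraries weighted by quality (arrayWeights of limma), the differences after scrambled RNA were 0.19 for Col4a1 and -0.0085 for Col4a2 (limma adjusted p 0.852 and 0.993).

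**Figure D2:**
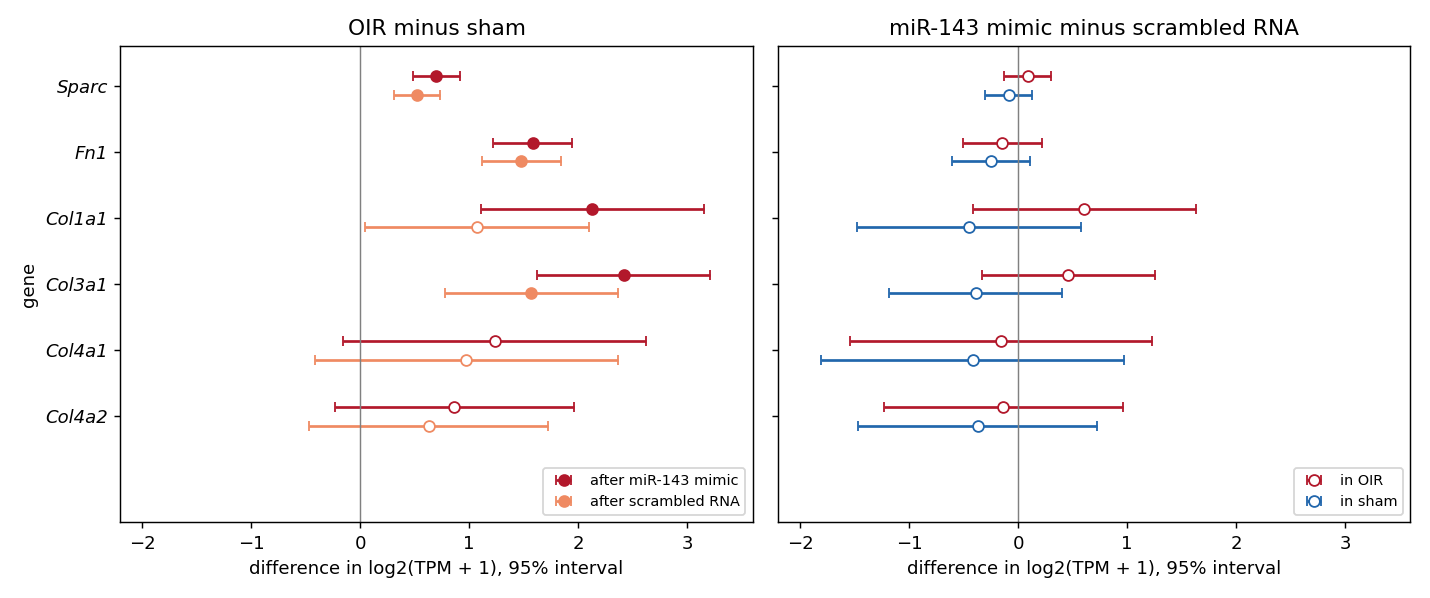
Difference in log2(TPM + 1) with its 95% interval for the 6 tested genes, OIR minus sham on the left and miR-143 mimic minus scrambled RNA on the right. Filled points passed a limma adjusted p of 0.05; these are Sparc, Fn1 and Col3a1 after either injection and Col1a1 after the mimic, and no point on the right is filled.

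The ratio of Col4a1 to Col4a2 level was 1.39 to 1.54 in OIR libraries and 1.01 to 1.39 in sham libraries. Among sham libraries the ratio was highest where both genes were highest, at 1.39 in sham mimic replicate 1 and also in sham scrambled replicate 2. A line through the 12 libraries, Col4a1 level on Col4a2 level, had a slope of 1.61 and an intercept of -22.2 TPM. The ratio of Col3a1 to Col1a1 was 1.58 to 2.64 in OIR and 1.40 to 2.21 in sham libraries, ranges that overlap. Fibrillar collagens made up 6.62% to 23.6% of the summed TPM of the 5 collagen genes in OIR and 1.66% to 8.98% in sham. The row named Col1a2 enters this share, and whether that row measures all Col1a2 RNA was not tested. The highest share was that of OIR mimic replicate 3, and the highest OIR share without it was 10.9%. The ratio of Fn1 to Col3a1 was 1.37 to 1.60 in the other 5 OIR libraries and 0.384 in OIR mimic replicate 3, against 1.40 to 2.34 in sham libraries.

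Col4a1 and Col4a2 moved together within OIR and within sham, and Col1a1 and Col3a1 within OIR. The 2 pairs were each examined in both conditions, which makes 4 relations of 6 libraries. Among the 6 tested genes they are also the pairs most alike over the same 12 libraries (r 0.992 and 0.971). The p-values were adjusted over these 4 relations only, not over all pairs of genes, and are given as a description. Within OIR, Col4a1 and Col4a2 had a Pearson r of 0.982 (exact permutation p = 0.00278, adjusted p = 0.0037) and a Spearman rho of 0.943 (exact permutation p = 0.0167, adjusted p = 0.0222). Within sham their r was 0.998 (exact permutation p = 0.00278, adjusted p = 0.0037) and their rho 0.943 (exact permutation p = 0.0167, adjusted p = 0.0222). Without the 2 libraries farthest from the median of Col4a1, r was 0.883 in OIR and 0.998 in sham. Col1a1 and Col3a1 had an r of 0.997 in OIR (exact permutation p = 0.00278, adjusted p = 0.0037), with a rho of 0.943 (exact permutation p = 0.0167, adjusted p = 0.0222) and an r of 0.989 without the 2 libraries farthest from the median of Col1a1. In sham their r was 0.718 (exact permutation p = 0.111, adjusted p = 0.111) and rho 0.771 (exact permutation p = 0.103, adjusted p = 0.103), with an r of 0.710 without the 2 farthest libraries. Sham libraries had only 58 to 106 reads of Col1a1 and 94 to 165 of Col3a1. There counting error gives 10.6% and 8.89%, beside coefficients of variation of 26.1% and 20.8%. Whether the r of this pair differs between OIR and sham was not tested.

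**Figure D3:**
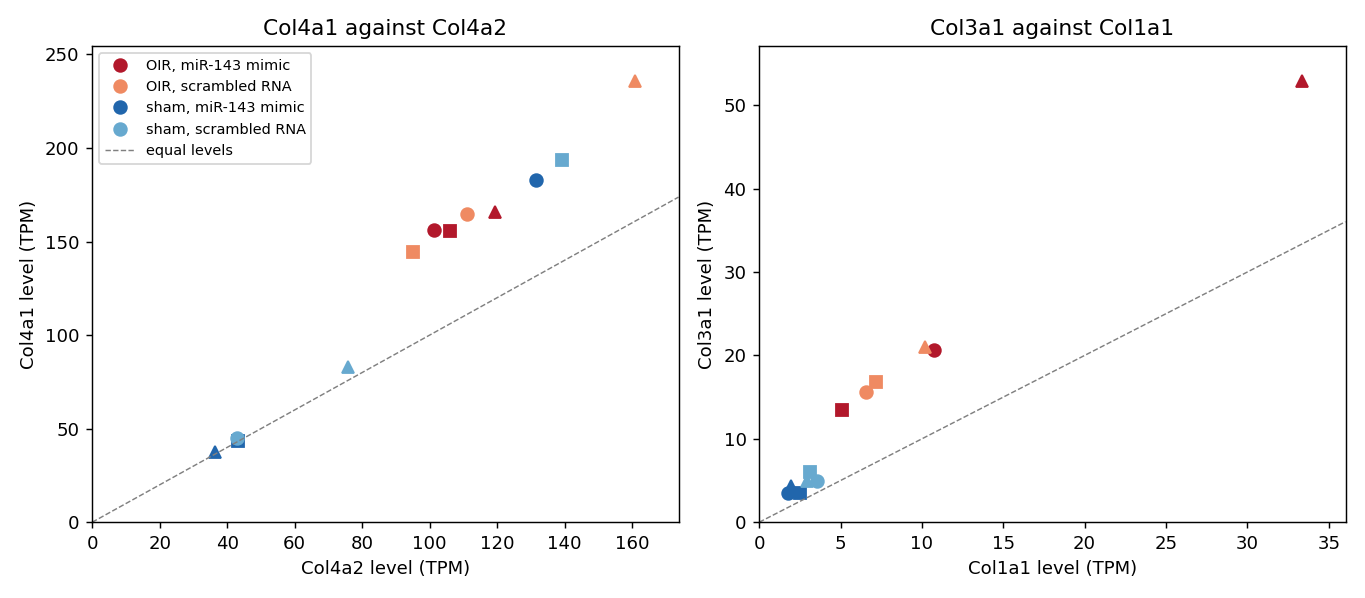
Level of Col4a1 against Col4a2 (left) and of Col3a1 against Col1a1 (right) in the 12 libraries, in TPM on linear axes, with the line of equal levels; circles, squares and triangles are replicates 1, 2 and 3. Sham mimic replicate 1 and sham scrambled replicate 2 lie among the OIR libraries on the left, and OIR mimic replicate 3 lies alone on the right, at 33.4 TPM of Col1a1 and 52.9 TPM of Col3a1.

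Likeness of pattern was measured as Pearson r of log2(TPM + 1) over the 12 libraries, against 12053 other genes with a mean of at least 5 TPM. It is given as a description, since the libraries share their groups and fall into OIR and sham. The gene most like Col4a1 was Col4a2, and the gene most like Col4a2 was Col4a1, with an r of 0.992. Next to Col4a1 after Col4a2 came ENSRNOG00000060614 (r 0.955), which the sources used here do not name. The gene most like Col1a1 was Col3a1, with an r of 0.971, while Col1a1 ranked 4 for Col3a1. Fn1 was most like ENSRNOG00000011967 (r 0.992), also unnamed, and its closest member was Sparc, at rank 322 with an r of 0.921.

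After the group means were taken off, Col4a1 and Col4a2 still had the highest likeness to each other (r 0.994). Col3a1 had rank 2 for Col1a1 and Col1a1 rank 1 for Col3a1 (r 0.960). Both varied most in OIR with mimic, with a coefficient of variation of 91.2% for Col1a1 and 72.5% for Col3a1. This r therefore rests largely on those 3 libraries. Sparc then had rank 42 for Col4a1 and rank 39 for Col4a2, with an r of 0.804 and 0.821. Between the fibrillar and the basement membrane genes the r was low, at 0.077 for Col3a1 and Col4a1 and -0.027 for Col1a1 and Col4a1. These genes varied in different groups. The coefficient of variation of Col4a1 was 3.47% in OIR with mimic, 72.0% in sham with scrambled RNA and 93.4% in sham with mimic. For Col1a1 it was 91.2%, 10.2% and 18.2% in the same groups. An r near 0 thus could not show whether these genes are related. Fn1 had an r of -0.030 with Col1a1 and of 0.359 with Col4a1.

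The mimic was not shown to change any of the genes. In OIR the comparison of mimic with scrambled RNA called 0 of the 6 genes and 0.00% of all tested genes by limma. There limma voom called 0 genes as well, and 1491 had an unadjusted limma p under 0.05. In sham limma called 0 of 6 and 0.00% of all genes and limma voom 0, and 333 genes had an unadjusted limma p under 0.05. In OIR the log2 difference was 0.61 for Col1a1 (95% interval -0.42 to 1.63) and 0.46 for Col3a1 (-0.34 to 1.25). Without OIR mimic replicate 3 they were -0.066 for Col1a1 and -0.078 for Col3a1. No gene of the 6 had each mimic library above each scrambled library in OIR or in sham, where 3.64% and 2.83% of all tested genes had. No gene of the 6 had them all below in OIR, where 9.01% of all tested genes had. In sham Col1a1 and Col3a1, 2 of 6, had each mimic library below each scrambled library, where 3.92% of all tested genes had. In OIR the log2 difference was -0.15 for Fn1 (-0.50 to 0.21) and 0.087 for Sparc (-0.13 to 0.30), so the intervals of these genes lie within a 2-fold change on the scale of the test.

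In sham each of the 6 genes had a lower estimate with the mimic, between -0.45 for Col1a1 and -0.088 for Sparc, where the median over all tested genes was -0.029. After median-ratio scaling that median was 0, and the 6 estimates lay between -0.43 for Col1a1 and -0.055 for Sparc. The share of all tested genes with a lower estimate was not counted. Some of the 6 genes move together, so these are not 6 separate signs. In the main fit the interval was -1.47 to 0.57 for Col1a1, -1.18 to 0.40 for Col3a1, -0.61 to 0.11 for Fn1 and -0.30 to 0.13 for Sparc. For Col4a1 the interval was -1.81 to 0.97 in sham and -1.55 to 1.23 in OIR, so a 2-fold lower level with the mimic was within it in both conditions. The interaction, a test of the mimic effect in OIR against that in sham, gave 0 of 6 genes and 0.00% of all genes by limma and 0 by limma voom, with an unadjusted limma p under 0.05 in 589 genes. Its largest estimates were 1.06 for Col1a1 (-0.39 to 2.51) and 0.85 for Col3a1 (-0.27 to 1.97). Without OIR mimic replicate 3 they were 0.38 and 0.31. The OIR difference of these genes was thus not shown to depend on the injection.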

How the data were processed

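The deposited table gives TPM (transcripts scaled to a common total) for 12 libraries, each in its own column, matched to titles by the list at its head. FastQC, TopHat, Cufflinks, Cuffdiff and the build rn6 appear, without roles, per the submitters' processing notes. The counting program and its annotation are not given in the sources used. The protocol in the labels speaks of miRNA libraries, while the table lists genes. For OIR scrambled replicate 3 and for OIR mimic replicate 1 the tags on disease and transfection are missing, and titles gave the group.

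Reads and gene lengths were recovered from the steps of the TPM values for 22310 of 22310 rows above 0, with a tolerance of at most 0.02 reads for a whole number. Recomputed TPM differed from the deposited by a relative error of at most 5.4e-08. They serve for depth and 1 alternative.

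Genes with at least 1 TPM in at least 3 libraries were fitted as log2(TPM + 1) with limma 3.58.1 in R 4.3.3, with 4 group means and 8 residual degrees of freedom, using the trend and robust options of eBayes. On this scale the fold change of a low gene comes out too small. P-values were adjusted over all tested genes. The fit and the recovery were tested on simulated data. The members and lists were chosen with earlier results of these data known. All 7 members are reported. Other matrix genes and cell type markers are given by symbol only, and were not analysed here. Retinal identity was therefore not checked.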

Additional observations from a re-analysis of the deposited data

Results flagged for a closer look

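The highest and the lowest library of each gene were compared with the other 5 in OIR and in sham, 14 groups in all, by the gap to the nearest library as a share of the whole range. The gaps were taken on TPM and not on log2(TPM + 1). Chance flags about 1 group in 20 where values are normally distributed, which TPM values need not be. Of the 14 groups 5 were flagged, all of them highest libraries in OIR. How many would be flagged on the log2 scale was not tested. OIR mimic replicate 3 stood apart for Col1a1 at 33.4 TPM, for Col3a1 at 52.9 TPM and for Col1a2 at 1.76 TPM, with gaps of 0.799, 0.807 and 0.932 of the range. OIR scrambled replicate 3 stood apart for Col4a1 at 235.7 TPM and for Col4a2 at 160.9 TPM, with gaps of 0.766 and 0.629. A gap above 0.625 was flagged, so that of Col4a2 only just passed. The genes of each set share their libraries, so these are not 5 independent flags.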

How the results depend on the processing

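For the 6 tested genes, 852 of 888 values under other settings kept their direction and their side of the threshold, 8 lost a call, 11 gained one and 17 changed sign. None of the 17 was called. A value that was not called and stayed so counts as kept. In the main fit no value of the mimic comparisons or of the interaction was called for these genes. The calls of Fn1 and Sparc between OIR and sham were kept in each setting run. Over both injections those of Col1a1 and Col3a1 were kept too (highest limma adjusted p 0.0295 and 0.0033). After the mimic the call of Col3a1 was kept, while that of Col1a1 was lost with limma voom. One alternative was chosen after seeing the data, the fit without sham mimic replicate 1 and sham scrambled replicate 1, whose columns share a number. It called Col4a1 (1.21) and Col4a2 (0.82) over both injections (limma adjusted p 0.00621 and 0.0145), and also after the mimic (1.95 and 1.43, limma adjusted p 0.0082 and 0.013). It lost the call of Col3a1 after scrambled RNA, at 1.53 in place of 1.57 (limma adjusted p 0.0865).

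Sign changes outside the fits without 1 library were those of Col4a2 with arrayWeights (-0.0085 for OIR after scrambled RNA, 0.045 for the mimic in OIR) and, without both untagged libraries, of Col4a1 (0.059) and Col4a2 (0.13) for the mimic in OIR. With 1 library left out, the mimic effect in OIR ranged from -0.066 to 1.18 for Col1a1, -0.078 to 0.87 for Col3a1, -0.31 to 0.045 for Col4a1 and -0.30 to 0.079 for Col4a2. In sham it ranged from -1.13 to 0.13 for Col4a1, -0.94 to 0.054 for Col4a2 and -0.19 to 0.0065 for Sparc. The interaction ranged from -0.29 to 0.98 for Col4a1, -0.19 to 0.80 for Col4a2 and -0.039 to 0.23 for Fn1.

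Counts of called genes over the whole table moved as follows, and the cause was not tested. OIR against sham after scrambled RNA gave 1704 genes, 3322 with arrayWeights, 931 without both untagged libraries, 735 without that pair, and 806 to 2175 with 1 library left out. It gave 846 without OIR scrambled replicate 3, and 915, 806 and 1088 without sham scrambled replicates 1, 2 and 3. After the mimic the count was 3108, with 5270 under arrayWeights, 2041 without sham mimic replicate 3 and at most 3278 with 1 library left out. The mimic in OIR gave 0 genes, 28 without both untagged libraries, 0 to 25 with 1 library left out, and 1 each with a pseudocount of 0.1, without a filter, without trend or robust option, with arrayWeights and with only the groups compared. The mimic in sham gave 2 with a pseudocount of 0.1, 1 with 0.5, 1 with arrayWeights and 0 to 1 with 1 library left out. The interaction gave 2 with a pseudocount of 0.1, 1 without a filter, 1 without trend or robust option and 0 to 1 with 1 library left out.

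Titles share replicate numbers between groups, but only 5 of 18 same-numbered pairs had deviations correlated above 0.1 (r from -0.048 to 0.258), so the numbers were not taken to pair the libraries. The highest r was that of sham mimic replicate 1 and sham scrambled replicate 1, the pair whose columns also share a number. With the replicate block the counts were 1799 for OIR after scrambled RNA, 3300 after the mimic and 5026 over both, and 0 for both mimic comparisons and the interaction; no call of the 6 genes changed. Col1a2 was tested only without a filter, with a log2 difference of 0.20 between OIR and sham over both injections (limma adjusted p 0.564).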
